A study of Mus musculus with 6 samples.

Results

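The genes described here are the solute carrier genes that were expressed in sorted regulatory T (Treg) cells with and without miR-142. They were chosen by symbol and by measured level. The symbol had to begin with Slc, a family number, the letter a and a member number, and more than 1 CPM (counts scaled to the library's total) was required in at least 3 of the 6 libraries. Of the 24421 genes in the matrix, 344 carried such a symbol and 179 of these passed the limit. Slc2a1, Slc2a3, Slc16a1, Slc16a3, Slc29a1 and Slc40a1 were left out by name, 5 of which had passed, and 174 members remained. A further 164 matching genes lay at or below the limit, and 57 matching genes had 0 counts in all libraries. The members comprised 169 transporter symbols and 5 longer symbols that name no transporter (Slc9a3r1, Slc4a1ap, Slc7a6os, Slc2a4rg-ps and Slc22a13b-ps). Families written with another letter, such as Slc35b and Slco, were not covered.

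The cells were CD4+YFP+ splenocytes of 8- to 11-week-old female C57BL/6 mice. The WT group was Foxp3Cre and the KO group Foxp3Cre miR-142fl/fl, each with 3 mice and 1 library per mouse. All mice, controls included, carried Foxp3Cre, in which Cre recombinase is fused to yellow fluorescent protein and driven by the endogenous Foxp3 promoter. In the KO group the floxed miR-142 alleles are therefore removed in cells that have turned on Foxp3. The KO mice are known to develop systemic autoimmunity, so that genotype and surroundings of the cells cannot be told apart. The comparison asked which transcripts differ in abundance between Treg cells that have miR-142 and those that lack it.

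Solute carriers move amino acids, sugars, ions, metals, nucleosides, vitamins and metabolites across the plasma membrane and the membranes of organelles. T cells that leave the resting state take up more amino acids and iron, and the kinase complex mTORC1 reads amino acid supply at the lysosome. Treg cells use the same carriers, and their nutrient uptake is known to shape how they expand and suppress. A microRNA pairs with the 3′ UTR of an mRNA mainly through its seed, bases 2 to 8 from its 5′ end, and lowers the abundance of that mRNA.

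Both mature arms of the deleted hairpin are shown with the seed in capitals, because the seed matches in members are given further on. The sequences and their GRCm38.p6 positions are those of RefSeq, chr11:87756903-87756925 for the 3p arm and chr11:87756867-87756887 for the 5p arm, both on the + strand.
mmu-miR-142a-3p: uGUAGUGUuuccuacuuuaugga
mmu-miR-142a-5p: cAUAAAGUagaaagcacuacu

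The floxed locus was checked first. Mir142 itself had 0 counts in all 6 libraries. Mir142b, annotated on the opposite strand over the same hairpin (GRCm38 chr11:87756841-87756955), read 9.05, 4.14 and 5.81 normalised CPM in WT and 0.389, 0.379 and 0.342 in KO libraries (log2 fold change -4.07, SE 0.39, FDR = 0.00132), so that the KO libraries all lay far below the WT libraries, as their labels say. Normalised CPM are CPM after TMM scaling, which corrects for differences in library composition, and every level below is on this scale unless it is given per kb of exon.

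Total counts ranged from 13883069 to 24042994 per library, and the members took 0.871% to 0.934% of them. The floor of 3 counts corresponded to 0.125 to 0.216 CPM. All 7 Treg markers were detected, and their summed level was 4816 to 5549 in WT and 6761 to 7688 in KO libraries. Much of that rise was in Il2ra (799, 744 and 726 in WT and 2258, 2404 and 3073.5 in KO libraries). Il2ra and Tnfrsf18 were called higher and the other 5 were not called. Cd4 and Cd3e were lower in every KO library than in every WT library (log2 fold change -0.22 and -0.20). KO replicate 1 stood apart in markers of other cell types. The 10 monocyte and macrophage markers were all highest in that library, where they summed to 2759. The remaining KO libraries summed to 76.8 and 19.98, against 9.48, 9.92 and 13.3 for WT. Of 9 neutrophil markers 8 were highest there, with a sum of 874. Here the remaining KO libraries summed to 7.87 and 41.1, against 1.29, 0.738 and 0.277 for WT. Both sums thus stayed above WT with KO replicate 1 left out, though not each gene in them. In KO replicate 3 Vcam1 (11.2) made up most of the monocyte and macrophage sum. Cd68 and Itgam were lower in both remaining KO libraries than in every WT library, whereas Lyz2 and Vcam1 were higher in both. In the fit without KO replicate 1, 2 of 4 tested monocyte and macrophage markers (Lyz2 and Vcam1) were called higher. Both tested neutrophil markers (Elane and Mpo) were also higher (adjusted p 0.0018 to 0.0126 for these genes). Elane and Mpo made up most of the neutrophil sum in KO replicate 2 (1.21 and 6.21) and in KO replicate 3 (4.31 and 32.2). S100a8, S100a9 and Retnlg read 0 in KO replicate 2 and 0.890, 1.23 and 0.137 in KO replicate 3. Sums were smaller for 6 B cell markers (193 in KO replicate 1 and 7.95 to 21.5 in the other libraries), 5 CD8 and NK markers (39.3 in KO replicate 1 and 13.8 to 17.98 in the other libraries) and 6 erythroid markers, 4 of which were at 0 in all libraries (11.99 in KO replicate 1 and 0.774 to 1.82 in the other libraries). Their part in the results below was not tested. The counts of called genes by class and by list, and the members that this library led most, are also given without it. In bulk libraries fewer cells of a type and less RNA per cell cannot be told apart.

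Between KO and WT Treg cells, 22 of the 174 members (12.6%) were higher and 16 (9.20%) lower at an FDR under 0.05 in edgeR's quasi-likelihood F (QLF) test, which was fitted to all 11658 genes above the same CPM limit. Over all genes tested the shares were 11.6% higher and 7.27% lower, so the members were called about as often as genes in general. The change was at least 2-fold in 8 higher and 4 lower members, and in 570 higher and 229 lower of the 11658 genes tested. Of the 8, Slc7a8, Slc6a9, Slc45a3 and Slc22a13b-ps passed the CPM limit only through the KO group and so had to differ. The median log2 fold change (KO over WT) was 0.08 over the members and 0.02 over all genes tested. All 3 KO libraries lay above all 3 WT libraries for 45 members (25.9%, against 22.2% of all genes tested) and below them for 35 (20.1%, against 18.8%). All 38 called members were among these, and each has an exact two-sided permutation p of 0.1, the smallest that 3 against 3 allows.

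With library-size scaling 15 members were higher and 19 lower, so that 44.1% of the called members were higher in place of 57.9%. Without KO replicate 1, and with the same genes tested, 20 members were higher (18 of them among the 22) and 19 lower (15 of them among the 16). Leaving out WT replicate 1, 2 or 3 left 6 higher members each time and 5, 4 and 5 lower members, and leaving out KO replicate 3 left 9 higher and 15 lower. Of the 38 called members, 30 lost their call without at least 1 library. Slc39a1 and Slc37a3 among the higher and Slc16a5, Slc12a7 and Slc28a2 among the lower were tested in all 6 of these fits and kept it. Slc7a8, Slc6a9 and Slc22a13b-ps fell under the CPM limit in the fits without a KO library and were tested only in the 3 without a WT library, so nothing is read from their calls in those.

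**Figure D1:**
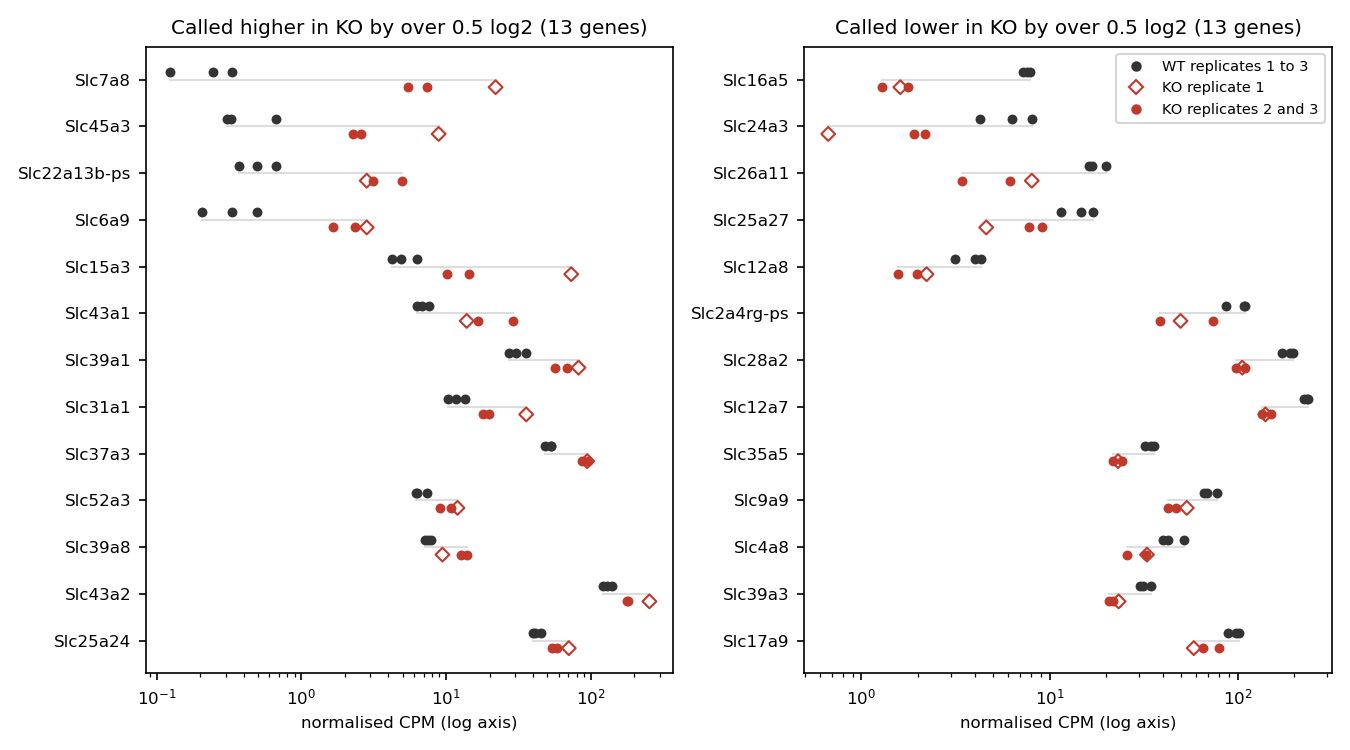
Level in each library of the 13 higher and 13 lower called members whose log2 fold change exceeded 0.5 in size, on a log axis in normalised CPM. Black dots are the 3 WT libraries, the open diamond is KO replicate 1 and red dots are KO replicates 2 and 3. In every row the WT and KO libraries do not overlap, and in Slc7a8, Slc45a3 and Slc15a3 KO replicate 1 lies far to the right of the other KO libraries.

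The limit was passed in all 3 KO but in fewer than 3 WT libraries by 9 members, and the other way round by 1. Slc7a8, Slc6a9, Slc45a3 and Slc22a13b-ps were above 1 CPM in 0 WT libraries, so they became members through the KO group and had to differ. In 159 members all 6 libraries lay above the limit. The members just inside it were Slc26a8, with 1.03, 0.250 and 0.844 CPM in WT and 1.72, 1.73 and 0.742 in KO libraries before TMM scaling, Slc16a4 (0.710, 0.582 and 1.12 CPM in WT and 1.18, 2.31 and 0.675 in KO libraries) and Slc22a23 (1.23, 0.499 and 0.844 CPM in WT and 2.85, 1.15 and 0.540 in KO libraries). Just outside it were Slc4a5 (1.10, 1.04 and 0.956 CPM in WT and 0.376, 0.360 and 0.202 in KO libraries), Slc7a3 (1.03, 0.665 and 1.01 CPM in WT and 0.860, 0.936 and 0.944 in KO libraries) and Slc5a10 (0.839, 0.957 and 0.675 CPM in WT and 0.860, 0.648 and 1.08 in KO libraries).

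Members ranged widely in level. A mean under 10 normalised CPM was found for 45 members, 106 lay between 10 and 100, and 23 at 100 or more. Levels of different genes were compared per kb of exon, with the exon length of GENCODE. The highest mean over the 6 libraries was that of Slc9a3r1, which encodes the scaffold protein NHERF1 and no carrier, at 171 normalised CPM per kb. The highest carrier was Slc1a5, the neutral amino acid and glutamine transporter ASCT2, at 76.0. It was followed by Slc25a5, the mitochondrial ADP/ATP carrier ANT2 (71.3), the choline transporter-like gene Slc44a2 (67.1), the sugar transporter Slc50a1 (63.2) and the mitochondrial phosphate carrier Slc25a3 (54.6). Next were the zinc transporter Slc39a7 (44.3), the oxoglutarate carrier Slc25a11 (37.7), Slc3a2, the heavy chain CD98 of amino acid exchangers (36.1), and the glutamine transporter Slc38a2 (35.7). Every library of Slc9a3r1 lay above those of the other members, whereas the ranges of each later pair of neighbours in this order overlapped. Of these 10 genes Slc1a5 was called lower and Slc25a5 higher in KO, and the others were not called.

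The members were grouped into substrate classes by family number, so that a few carry a substrate other than the one their class names. In the class medians, amino acid transporters (0.22), metal ion transporters (0.14), mitochondrial carriers (0.18), transporters of sugars, polyols and monocarboxylates (0.30) and transporters of vitamins, heme and choline (0.35) lay above 0, and ion exchangers and cotransporters (-0.22) below it, and none of these signs flipped with library-size or RLE scaling. The medians of nucleoside and nucleotide-sugar transporters (0.03) and of peptide, lipid and organic ion transporters (0.04) were each -0.04 with library-size scaling. Without KO replicate 1, and with the same genes tested, the median of the sugar, polyol and monocarboxylate class turned to -0.14 and that of the peptide, lipid and organic ion class to -0.13, and the mitochondrial carriers came down to 0.06. The sign of both turned medians rested on that library. The other medians were then 0.14 for amino acid, 0.10 for metal ion, 0.43 for vitamin, heme and choline, 0.02 for nucleoside and -0.16 for ion transporters. In the same fit 1336 of all 11658 genes tested were higher and 836 lower. There 5 amino acid transporters were higher and 3 lower, and 5 metal ion transporters were higher and 1 lower. Of the ion exchangers 1 was higher and 7 were lower, of the nucleoside transporters 1 was higher and 2 were lower, and of the peptide and lipid transporters 2 were higher and 1 was lower. Mitochondrial carriers and sugar transporters each held 2 higher and 2 lower members, and 1 vitamin transporter was higher.

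**Figure D2:**
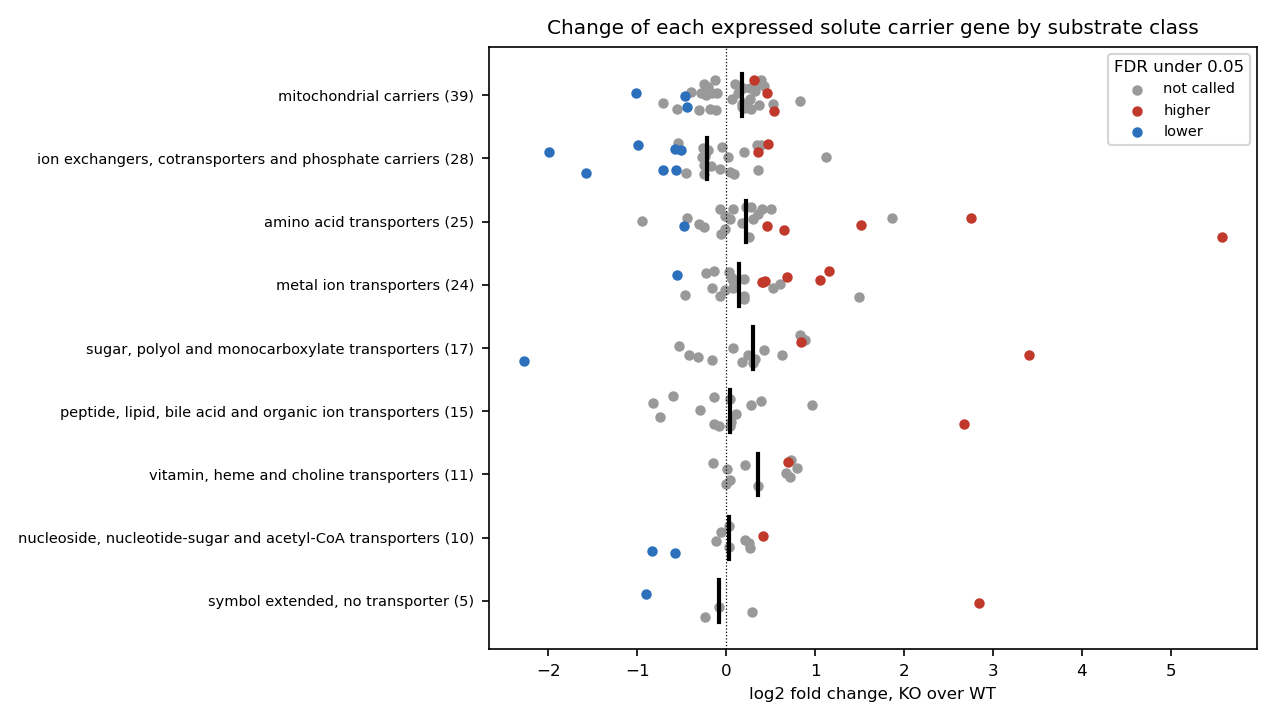
Log2 fold change (KO over WT) of each of the 174 members by substrate class, with the number of members in brackets. Red and blue dots are members called higher and lower, grey dots were not called, and black bars are class medians. Called lower members are most numerous among ion exchangers and cotransporters (7 of 28), and called higher members among metal ion transporters (6 of 24) and amino acid transporters (5 of 25). Over all genes tested 11.6% were called higher and 7.27% lower.

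Of the 25 amino acid transporters, 5 were higher and 1 lower in KO, against 11.6% and 7.27% of all genes tested. The other 19 were not called. The higher members are all known carriers of neutral amino acids. Slc7a8 encodes LAT2, a light chain that pairs with CD98 to exchange neutral amino acids, and its raw counts were 2, 6 and 6 in WT and 396, 72 and 108 in KO. In normalised CPM these are 0.123, 0.246 and 0.332 in WT and 21.98, 5.45 and 7.39 in KO (log2 fold change 5.58, SE 0.70, FDR = 0.00329). The WT libraries lay near the floor of 3 counts and held 14 counts in all, so the size of the fold change is uncertain. KO replicate 1 was the highest library, and without it the log2 fold change was 4.72. Slc6a9, the glycine transporter GlyT1, read 0.493, 0.205 and 0.332 normalised CPM in WT and 2.83, 2.35 and 1.64 in KO libraries (log2 fold change 2.75, SE 0.41, FDR = 0.00552), with 19 counts over the 3 WT libraries. Its exons overlap those of Ccdc24 (1429 bases), Gm17114 (511 bases) and B4galt2 (46 bases) on the opposite strand, and the counting ignored strand. Ccdc24 was at 0.123 normalised CPM or less in every library and B4galt2 at 0.333 or less, and Gm17114 was not in the matrix. The part of shared reads was not tested.

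Slc43a1 and Slc43a2 encode LAT3 and LAT4, facilitative carriers of branched-chain and other large neutral amino acids. Slc43a1 had 6.34, 7.58 and 6.86 normalised CPM in WT and 13.9, 16.7 and 29.1 in KO libraries (log2 fold change 1.52, SE 0.29, FDR = 0.0133), and the 3 KO libraries spread over a wide range above the WT libraries. The more abundant Slc43a2 had 139, 121 and 129.9 normalised CPM in WT and 254, 179 and 179 in KO libraries (log2 fold change 0.65, SE 0.15, FDR = 0.0260). Slc7a5, which encodes LAT1, the main importer of leucine in activated T cells, showed 58.9, 51.8 and 57.8 normalised CPM in WT and 85.3, 72.9 and 73.9 in KO libraries (log2 fold change 0.46, SE 0.10, FDR = 0.0209). Each KO library lay above each WT library for all 3 genes, and KO replicate 1 was the highest for Slc43a2 and Slc7a5. Without it their log2 fold changes were 0.46 (adjusted p = 0.0138) and 0.39 (adjusted p = 0.0332), and over the alternatives the adjusted p ran from 0.000991 to 0.112 and from 0.00214 to 0.0989. The one lower member was Slc1a5, which read 340.5, 408 and 356 normalised CPM in WT and 262, 242 and 294 in KO libraries (log2 fold change -0.47, SE 0.11, FDR = 0.0281). The groups did not overlap. The calls of Slc43a1, Slc43a2, Slc7a5 and Slc1a5 were lost without any one of the WT libraries (adjusted p 0.0513 to 0.113), and that of Slc1a5 also without KO replicate 2 (adjusted p = 0.0503).

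Other amino acid carriers known from T cell activation were not called. Slc3a2, the heavy chain that Slc7a5 and Slc7a8 need, had 108, 114 and 155 normalised CPM in WT and 149.8, 121 and 117 in KO libraries (log2 fold change 0.04 (SE 0.17, FDR = 0.883), 95% interval -0.35 to 0.43), with overlapping groups. The glutamine transporter Slc38a1 read 234, 222 and 239.6 normalised CPM in WT and 207, 184 and 171 in KO libraries and came near the threshold, at -0.31 (SE 0.10, FDR = 0.0641) on the log2 scale, with no overlap of the groups. Slc38a2, another glutamine transporter, read 195, 272 and 485 normalised CPM in WT and 260.1, 399 and 284 in KO libraries (-0.01 (SE 0.33, FDR = 0.982) on the log2 scale), and its WT libraries alone spanned more than a 2-fold range. The arginine importer Slc7a1 (-0.25 (SE 0.13, FDR = 0.226)), the exchanger Slc7a6 (0.07 (SE 0.11, FDR = 0.687)), the taurine transporter Slc6a6 (0.30 (SE 0.11, FDR = 0.105)) and the lysosomal arginine sensor Slc38a9 (0.22 (SE 0.14, FDR = 0.323)) were not called either. Slc38a10 missed the threshold by little (156, 154 and 156 normalised CPM in WT and 192, 175 and 196 in KO libraries, log2 fold change 0.27, SE 0.08, FDR = 0.0503).

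In the list of transporters with a known place in T cell activation, 16 of 18 genes were tested, all members, of which 6 were higher (37.5%, against 11.6% of all genes tested) and 1 lower (6.25%, against 7.27%). The higher ones were Slc7a5, Slc43a1, Slc43a2, Slc11a2, Slc39a10 and Slc25a5, the lower one was Slc1a5, and the median log2 fold change was 0.26, against 0.02 over all genes tested. There were 5 higher and 2 lower without KO replicate 1, since Slc25a5 was not called (adjusted p = 0.1) and Slc38a1 was lower (-0.38, adjusted p = 0.0289). All 7 calls made with the 6 libraries were lost without any one of the WT libraries (adjusted p 0.0513 to 0.171).

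Genes that sense amino acids were read from a list beside the carriers. Of 35 genes of mTORC1 amino acid sensing 32 were tested, with 6 higher (18.8%, against 11.6% of all genes tested) and 0 lower (against 7.27%). Their median was 0.12 on the log2 scale. At an unadjusted p under 0.05 1 of the 32 was lower, and DESeq2 called 1 lower. Rragd, a Rag GTPase that recruits mTORC1 to the lysosome, read 34, 27.8 and 29.6 normalised CPM in WT and 89.9, 119 and 133 in KO libraries (log2 fold change 1.90, SE 0.16, FDR = 0.000996), and Rraga read 47.5, 44.8 and 43.5 normalised CPM in WT and 82.4, 81.99 and 79.5 in KO libraries (log2 fold change 0.85, SE 0.08, FDR = 0.00129). Fnip2, a partner of folliculin, had 5.11, 3.94 and 4.65 in WT and 25.3, 10.9 and 13.8 in KO (log2 fold change 1.87, SE 0.33, FDR = 0.0102). Lamtor3 (0.55, FDR = 0.0491), Lamtor4 (0.53, FDR = 0.0482) and Rheb (0.41, FDR = 0.0458) were higher by less. These 3 were not called without KO replicate 1 (adjusted p 0.0841, 0.0879 and 0.108), whereas Fnip2 was higher by 1.44 (adjusted p = 0.00300) and Sesn3 was called (0.37, adjusted p = 0.0297), which made 4 higher and 0 lower. Of 20 genes of the Atf4 response to amino acid shortage 16 were tested. About as often as among all genes tested, 2 were higher (12.5%, against 11.6%). These were Asns, asparagine synthetase (2.34, 1.80 and 2.16 normalised CPM in WT and 9.49, 4.32 and 6.71 in KO libraries, log2 fold change 1.71, SE 0.32, FDR = 0.0134), and the transcription factor gene Atf5 (5.97, 4.92 and 5.64 normalised CPM in WT and 14.04, 8.78 and 10.5 in KO libraries, log2 fold change 1.02, SE 0.22, FDR = 0.0210), while Atf4 itself was not called (-0.47, FDR = 0.198). Asns and Atf5 were highest in KO replicate 1, and without it their log2 fold changes were 1.40 and 0.81 (adjusted p = 0.0129 and 0.0268).

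Ion exchangers, cotransporters and phosphate carriers held more lower members than any other class. Of its 28 members 7 were lower and 2 higher, against 7.27% and 11.6% of all genes tested. Slc12a7, the potassium-chloride cotransporter KCC4, read 237, 225 and 234 normalised CPM in WT and 141, 135 and 150.2 in KO libraries (log2 fold change -0.71, SE 0.08, FDR = 0.00237), and the 3 libraries of each group lay close together. Slc26a11, an anion exchanger that carries sulfate and chloride, had 16.9, 19.9 and 16.2 normalised CPM in WT and 8.05, 3.41 and 6.16 in KO libraries (log2 fold change -1.58, SE 0.30, FDR = 0.0133). Slc24a3, a sodium-calcium exchanger that needs potassium, read 6.34, 8.12 and 4.26 normalised CPM in WT and 0.666, 1.89 and 2.19 in KO libraries (log2 fold change -1.995, SE 0.45, FDR = 0.0246), with KO replicate 1 the lowest library. Slc9a9, which encodes the endosomal sodium-proton exchanger NHE9, had 77.4, 66.2 and 68.98 normalised CPM in WT and 53.7, 46.8 and 42.6 in KO libraries (log2 fold change -0.57, SE 0.12, FDR = 0.0164).

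The other lower members of the class were Slc12a8, a gene of the cation-chloride cotransporter family (4.31, 3.16 and 4.04 in WT and 2.22, 1.97 and 1.57 in KO, log2 fold change -0.99, SE 0.25, FDR = 0.0338), the sodium-driven bicarbonate exchanger Slc4a8 (51.9, 42.6 and 40.3 in WT and 32.97, 25.7 and 32.7 in KO, log2 fold change -0.56, SE 0.15, FDR = 0.0371) and Slc17a9, the vesicular nucleotide transporter (97.9, 88.8 and 102 in WT and 58.4, 65.8 and 79.2 in KO, log2 fold change -0.50, SE 0.13, FDR = 0.0333). In the family of Slc12a7 another member was called in the other direction. Slc12a4, the potassium-chloride cotransporter KCC1, read 33.6, 32.7 and 32.4 normalised CPM in WT and 43.7, 38.99 and 43.9 in KO libraries (log2 fold change 0.36, SE 0.09, FDR = 0.0370), and its call was lost with library-size scaling (adjusted p = 0.0946). Of the 9 calls in the class only that of Slc12a7 stood without any one library. Those of Slc12a4, Slc12a8, Slc17a9, Slc4a8 and Slc9a9 were lost without any one of the WT libraries, Slc24a3 without WT replicate 1 or 2 and Slc26a11 without WT replicate 2 (adjusted p 0.0534 to 0.143 in all these). Without KO replicate 1 Slc12a4 was not called (adjusted p = 0.102), without KO replicate 2 Slc12a8, Slc17a9 and Slc4a8 were not (0.0532 to 0.0617), and without KO replicate 3 Slc12a4, Slc12a8 and Slc4a8 were not (0.0614 to 0.110).

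Among the 24 metal ion transporters 6 were higher and 1 lower, against 11.6% and 7.27% of all genes tested. Slc39a1, the zinc importer ZIP1, had 35.5, 30.3 and 27.1 normalised CPM in WT and 82.1, 56.1 and 68.6 in KO libraries (log2 fold change 1.15, SE 0.17, FDR = 0.00500), with a wide gap between the groups. Slc31a1, the copper importer CTR1, read 13.6, 10.3 and 11.6 normalised CPM in WT and 35.7, 18.1 and 19.9 in KO libraries (log2 fold change 1.06, SE 0.27, FDR = 0.0370). Its highest value was that of KO replicate 1, and without that library the log2 fold change was 0.69 (adjusted p = 0.0246), with adjusted p of 0.00226 to 0.142 over the alternatives. The zinc importers Slc39a8 (ZIP8, 7.14, 7.87 and 7.47 in WT and 9.44, 12.6 and 14.03 in KO, log2 fold change 0.68, SE 0.19, FDR = 0.0465) and Slc39a10 (ZIP10, 34.2, 39.7 and 40.7 in WT and 48.2, 49.8 and 53.4 in KO, log2 fold change 0.40, SE 0.10, FDR = 0.0363) were higher as well, as was Slc41a3, of the magnesium transporter family (13.8, 13.3 and 13.8 in WT and 18.6, 17.8 and 19.02 in KO, log2 fold change 0.44, SE 0.12, FDR = 0.0383).

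Slc11a2, the iron importer DMT1, had 38, 36.4 and 38.3 normalised CPM in WT and 50.2, 48.9 and 51.3 in KO libraries (log2 fold change 0.42, SE 0.08, FDR = 0.0160), with little spread within either group. The lower member was Slc39a3, the zinc importer ZIP3, with 34.5, 31.5 and 30.4 normalised CPM in WT and 23.3, 20.6 and 21.6 in KO libraries (log2 fold change -0.56, SE 0.11, FDR = 0.0148). Slc30a4, a zinc exporter, was not called (0.53 (SE 0.27, FDR = 0.216)), and neither was any other of the Slc30 exporters. With library-size scaling Slc39a8, Slc39a10 and Slc41a3 lost their call (adjusted p 0.0631 to 0.0814), which left 3 higher members. All calls of the class but that of Slc39a1 were lost without any one of the WT libraries (adjusted p 0.0514 to 0.155). Without KO replicate 3 the calls of Slc11a2, Slc31a1, Slc39a8, Slc39a10 and Slc41a3 were lost (0.0508 to 0.123), without KO replicate 1 those of Slc39a10 and Slc41a3 (0.0542 and 0.0704) and without KO replicate 2 that of Slc39a8 (0.0723).

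The 39 mitochondrial carriers of family Slc25 gave 3 higher members (7.69%, against 11.6% of all genes tested) and 3 lower (7.69%, against 7.27%), each by modest amounts. Slc25a51, which imports NAD+ into the mitochondrion, had 77.1, 85.2 and 84.6 normalised CPM in WT and 115, 122 and 101 in KO libraries (log2 fold change 0.45, SE 0.10, FDR = 0.0205). Slc25a24, a calcium-regulated carrier of ATP-magnesium and phosphate, had 44.9, 39.6 and 41.4 normalised CPM in WT and 70.4, 58.6 and 53.9 in KO libraries (log2 fold change 0.54, SE 0.12, FDR = 0.0234). Slc25a5, one of the ADP/ATP carriers, lay at the edge of the threshold (104, 108 and 103 normalised CPM in WT and 143, 124 and 123 in KO libraries, log2 fold change 0.31, SE 0.09, FDR = 0.0497), and Slc25a4, another of them, was not called (65.7, 47.6 and 59.1 in WT and 82.9, 56.6 and 62.9 in KO, log2 fold change 0.23, SE 0.18, FDR = 0.387). Lower in KO were Slc25a27, known as the uncoupling protein UCP4 (14.7, 17.1 and 11.5 in WT and 4.61, 7.80 and 9.10 in KO, log2 fold change -1.01, SE 0.28, FDR = 0.0448), Slc25a44, a carrier of branched-chain amino acids (42.4, 41.5 and 40.2 in WT and 27.9, 27.6 and 34.9 in KO, log2 fold change -0.46, SE 0.12, FDR = 0.0373), and Slc25a17, a peroxisomal carrier (43.2, 43.5 and 45.1 in WT and 36.1, 28.6 and 32.1 in KO, log2 fold change -0.44, SE 0.11, FDR = 0.0323). All 6 calls were lost without any one of the WT libraries (adjusted p 0.0624 to 0.171). Slc25a5 and Slc25a44 were not called without KO replicate 1 (0.124 and 0.0709), Slc25a27 and Slc25a44 without KO replicate 2 (0.0630 and 0.0677) and Slc25a5 and Slc25a17 without KO replicate 3 (0.0788 and 0.0735).

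Of 10 transporters of nucleosides, nucleotide sugars and acetyl-CoA 2 were lower and 1 higher, against 7.27% and 11.6% of all genes tested. Slc28a2, a sodium-coupled nucleoside importer, read 189.8, 196 and 171 normalised CPM in WT and 106, 109 and 97.9 in KO libraries (log2 fold change -0.83, SE 0.09, FDR = 0.00202), and the groups were far apart relative to their spread. Slc35a5, of the nucleotide-sugar transporter family, had 34.7, 32.2 and 35.7 normalised CPM in WT and 23.1, 24.3 and 21.6 in KO libraries (log2 fold change -0.57, SE 0.10, FDR = 0.0114). Slc33a1, which carries acetyl-CoA into the endoplasmic reticulum, had 26.6, 28.3 and 26.2 normalised CPM in WT and 36.4, 37.02 and 34.7 in KO libraries (log2 fold change 0.41, SE 0.09, FDR = 0.0245). Gm26850 overlaps its exons on the opposite strand over 1136 bases and was not analysed here. The call of Slc35a5 was lost without WT replicate 3 (adjusted p = 0.0604), and that of Slc33a1 without any one of the WT libraries or without KO replicate 1 or 3 (0.0550 to 0.108).

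Of 17 transporters of sugars, polyols and monocarboxylates 2 were higher (11.8%, against 11.6% of all genes tested) and 1 lower (5.88%, against 7.27%). Slc16a5, of the monocarboxylate transporter family, read 7.64, 7.26 and 7.91 normalised CPM in WT and 1.61, 1.29 and 1.78 in KO libraries (log2 fold change -2.28, SE 0.22, FDR = 0.00129), with little spread within either group. Slc37a3, a lysosomal protein of the sugar phosphate exchanger family, had 52.9, 53.5 and 48.3 normalised CPM in WT and 94.4, 86.99 and 95.5 in KO libraries (log2 fold change 0.84, SE 0.09, FDR = 0.00176). Slc45a3, known as prostein, was near the floor in WT (0.308, 0.328 and 0.664 in WT and 8.88, 2.27 and 2.60 in KO, log2 fold change 3.41, SE 0.66, FDR = 0.0145), with 25 counts over the 3 WT libraries. Slc45a3 passed the CPM limit only through the KO group and so had to differ. KO replicate 1 was its highest library, and without it the log2 fold change was 2.49. Its call was lost without WT replicate 1 or 2 (adjusted p 0.0622 and 0.0736).

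Of 15 transporters of peptides, lipids, bile acids and organic ions only Slc15a3 was called, and it was higher (6.67%, against 11.6% of all genes tested). Of 11 transporters of vitamins, heme and choline only Slc52a3 was called, and it was higher (9.09%). Slc15a3, a lysosomal peptide and histidine transporter, read 6.28, 4.26 and 4.87 normalised CPM in WT and 73.2, 10.2 and 14.5 in KO libraries (log2 fold change 2.68, SE 0.74, FDR = 0.0444). KO replicate 1 was far above both other KO libraries, and without it the log2 fold change was 1.28 (adjusted p = 0.00955), with adjusted p of 0.00240 to 0.156 over the alternatives. Its call was lost without any one of the WT libraries (0.115 to 0.156). Tmem132a, on the opposite strand, shares 1541 exon bases with it and was higher in KO too (0.862, 1.07 and 0.498 in WT and 8.83, 1.89 and 3.42 in KO, log2 fold change 2.53, SE 0.61, FDR = 0.0290), and which gene the shared reads came from cannot be told apart. The log2 fold change of Tmem132a was 1.69 without KO replicate 1 (adjusted p = 0.0264). Slc52a3, a riboflavin transporter, had 7.39, 6.19 and 6.25 normalised CPM in WT and 11.99, 9.08 and 10.9 in KO libraries (log2 fold change 0.69, SE 0.18, FDR = 0.0387), and its call was lost without any one library but KO replicate 2 (adjusted p 0.0745 to 0.151) and with library-size scaling (0.0660). Although 1 vitamin, heme or choline transporter was called, all KO libraries lay above all WT libraries for 6 of the 11, against 22.2% of all genes tested. The heme transporter Slc48a1 came closest to the threshold (57.2, 43.4 and 48.7 normalised CPM in WT and 120.2, 71.5 and 66.4 in KO libraries, log2 fold change 0.79, SE 0.23, FDR = 0.0557). KO replicate 1 was its highest library, and without it the log2 fold change was 0.47 (adjusted p = 0.0391). For the folate carrier Slc19a1 the groups overlapped (32.8, 27.6 and 28.1 normalised CPM in WT and 28.1, 30.6 and 30.4 in KO libraries, log2 fold change 0.01, 95% interval -0.25 to 0.27).

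Of the 5 longer symbols 2 were called. Slc22a13b-ps, annotated as a pseudogene, read 0.493, 0.369 and 0.664 normalised CPM in WT and 2.83, 3.10 and 4.995 in KO libraries (log2 fold change 2.84, SE 0.37, FDR = 0.00369), with 29 counts over the 3 WT libraries. It passed the CPM limit only through the KO group and so had to differ. How reads it shares with the parent gene were counted was not tested. Slc2a4rg-ps, also a pseudogene, had 108, 109.7 and 87.1 normalised CPM in WT and 49.7, 38.8 and 74.1 in KO libraries (log2 fold change -0.91, SE 0.23, FDR = 0.0341), and its call was lost without any one of the WT libraries (adjusted p 0.0677 to 0.120). Slc9a3r1 was not called (306, 289 and 297 in WT and 371, 325 and 391.6 in KO, log2 fold change 0.29, SE 0.10, FDR = 0.0782).

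KO replicate 1 was more than 2-fold above every other library for 8 members (4.60%, against 3.85% of all genes tested). Besides Slc7a8, Slc15a3 and Slc45a3 these were Slc7a7, a light chain for cationic amino acids (2.16, 1.93 and 2.38 normalised CPM in WT and 18.04, 2.12 and 3.15 in KO libraries), Slc37a2 (8.44, 10.04 and 9.35 in WT and 24.5, 4.24 and 5.27 in KO), the hexose transporter Slc2a6 (2.59, 2.87 and 3.26 in WT and 11.5, 2.20 and 1.71 in KO), the aromatic amino acid transporter Slc16a10 (5.60, 7.21 and 6.14 in WT and 25.5, 5.15 and 4.31 in KO) and Slc22a23 (1.17, 0.492 and 0.830 in WT and 2.94, 1.21 and 0.547 in KO). None of these 5 was called with all libraries. Without KO replicate 1 the log2 fold change of Slc7a7 went from 1.86 to 0.30 and that of Slc22a23 from 0.97 to 0.11. Those of Slc37a2, Slc2a6 and Slc16a10 turned from 0.30, 0.83 and 0.89 to -0.96, -0.58 and -0.43. Slc37a2 was then lower in KO (adjusted p = 0.0173, and 0.0170 to 0.881 over the alternatives). The summed markers of other cell types were also highest in KO replicate 1. In KO replicates 2 and 3 Slc37a2, Slc2a6 and Slc16a10 lay below the WT libraries. The monocyte and macrophage sum lay above them there, with Vcam1 (11.2) most of it in KO replicate 3. Lyz2 and Vcam1 lay above the WT libraries in both, and Cd68 and Itgam below them. The part of these markers was not tested.

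**Figure D3:**
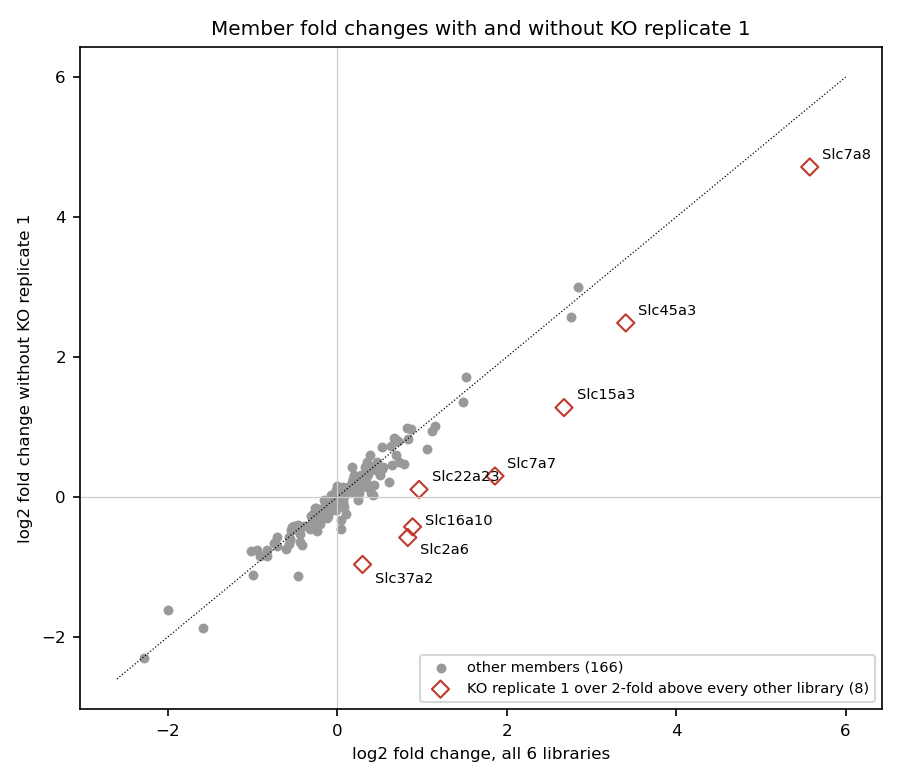
Log2 fold change of the 174 members with all 6 libraries (x axis) and without KO replicate 1 (y axis), with the same genes tested. The dotted line marks equality. Open diamonds are the 8 members in which KO replicate 1 is over 2-fold above every other library, and they lie below the line, with Slc37a2, Slc2a6 and Slc16a10 passing from above 0 to below 0.

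Members varied more between KO than between WT libraries, with a median coefficient of variation of 16% in KO and 8.98% in WT. It exceeded 50% for 13 members in KO and for 4 in WT. In KO the widest were Slc7a7, Slc15a3, Slc2a6 and Slc16a10 (103% to 115%), all led by KO replicate 1. The widest in WT was Slc15a2, the peptide transporter PEPT2 (88.2%), which read 64.6, 0.205 and 82.7 normalised CPM in WT and 79.7, 61.3 and 10.3 in KO libraries. A single WT library almost lacked the transcript and a single KO library was low, while the other 4 libraries held 61.3 to 82.7. Among the 8621 genes tested with a WT mean over 10 normalised CPM, Slc15a2 was the only one for which WT replicate 2 lay more than 10-fold below both other WT libraries. Of the tested genes next to it along chromosome 16, Ildr1 read 12.99, 8.98 and 12.4 normalised CPM in WT and 4.33, 2.95 and 3.63 in KO libraries. Eaf2, on the other side, read 0.801, 0.287 and 0.719 normalised CPM in WT and 1.61, 1.44 and 1.03 in KO libraries and the gene beyond it, Iqcb1, 9.24, 10.2 and 10.95 normalised CPM in WT and 11.1, 17.4 and 11.7 in KO libraries. In WT replicate 2 Eaf2 and Ildr1 were 0.399 and 0.721 times the lower of the other WT libraries, Iqcb1 was 1.11 times and Slc15a2 0.00317 times. The log2 fold change of Slc15a2 was 0.04 (SE 1.29, FDR = 0.986), with a 95% interval of -2.98 to 3.07. This gene was singled out after its values had been seen, and the cause was not tested.

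The 3′ UTRs of 173 members (the longest annotated in GENCODE vM21) were searched on the transcribed strand for seed matches. For miR-142a-3p a match was ACACTACA (8mer), its first 7 bases (7mer-m8) or its last 7 bases (7mer-A1), and for miR-142a-5p it was ACTTTATA or its first or last 7 bases. A match of miR-142a-3p was present in 27 members (15.6%) and in 13.4% of all tested genes with a 3′ UTR, and a match of miR-142a-5p in 44 members (25.4%) and in 24%. Of the 27 members with a miR-142a-3p match 9 were higher (33.3%) and 2 lower in KO, with a median log2 fold change of 0.35. Over all tested genes with such a match 20.2% were higher and 6.16% lower, with a median of 0.12. Of the 44 members with a miR-142a-5p match 5 were higher (11.4%) and 6 lower (13.6%), with a median of 0.18. Over all tested genes with such a match 13.5% were higher and 6.95% lower (median 0.01). Of the 113 members with neither 11 were higher (9.73%) and 8 lower (7.08%), with a median of 0.04. Over all tested genes with neither 10.2% were higher and 7.3% lower (median 0.01). Without KO replicate 1, and with the same genes tested, 9 members with a miR-142a-3p match were higher and 2 lower (median 0.30), 5 and 6 of those with a miR-142a-5p match (0.10) and 9 and 11 of those with neither (-0.05). A match is a description of the sequence and does not show binding. The median 3′ UTR length was 2409 bases for members with a miR-142a-3p match and 1044 for members with neither. With 8-base matches only, 6 members had a miR-142a-3p match, 2 of them higher (33.3%), with a median of 0.37. Over all tested genes with an 8-base miR-142a-3p match 26.7% were higher, with a median of 0.18.

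The miR-142a-3p matches of the 9 higher members are shown with up to 12 bases on either side and the match in capitals, in the sense of the transcript, since these members carry both a match and a call. Slc39a1 and Slc37a3 hold an 8mer, and both kept their call without any one library. Slc6a9 passed the CPM limit only through the KO group. The calls of the other members shown were lost without any one of the WT libraries. Slc31a1 holds a pair of 7-base matches.
Slc39a1 (8mer, GRCm38 chr3:90253393-90253400, + strand): tactgacaccagACACTACAgaaagtggac
Slc37a3 (8mer, GRCm38 chr6:39337017-39337024, - strand): aattatttttttACACTACAgcagttcctg
Slc31a1 (7mer-m8, GRCm38 chr4:62389641-62389647, + strand): gggcttgttaagACACTACttggtggacc
Slc31a1 (7mer-m8, GRCm38 chr4:62390308-62390314, + strand): aggcttgttcccACACTACctctttaaag
Slc43a2 (7mer-m8, GRCm38 chr11:75572875-75572881, + strand): ccatcctccagcACACTACctgtccctga
Slc11a2 (7mer-A1, GRCm38 chr15:100393366-100393372, - strand): ggggaacccctgCACTACAgggtcctcct
Slc39a10 (7mer-A1, GRCm38 chr1:46807964-46807970, - strand): caatcctaattcCACTACAtttctgtttg
Slc25a24 (7mer-A1, GRCm38 chr3:109166639-109166645, + strand): tgtagccgtgatCACTACAagcctttggg
Slc25a51 (7mer-A1, GRCm38 chr4:45397940-45397946, - strand): caaatgctgtccCACTACActccagcctt
Slc6a9 (7mer-A1, GRCm38 chr4:117868125-117868131, + strand): gcgctacgctccCACTACAaccccctctc

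The other members with an 8mer were Slc41a1, Slc36a1, Slc25a26 and Slc20a2, none of which was called (-0.23, -0.02, 0.40 and 0.35 in log2 fold change). The 2 lower members with a miR-142a-3p match, Slc4a8 and Slc12a8, hold 7-base matches only.

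**Figure D4:**
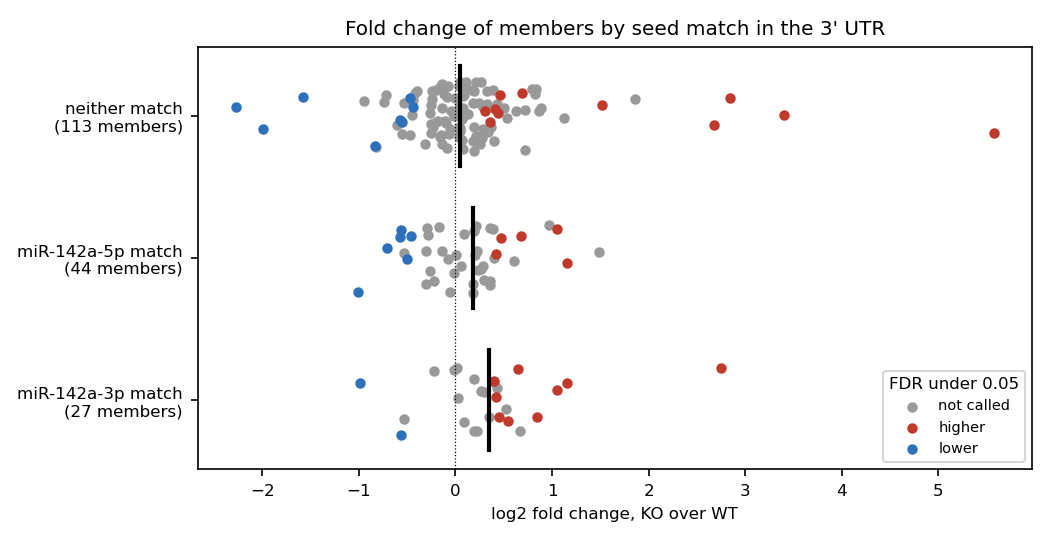
Log2 fold change (KO over WT) of members by seed match in the 3′ UTR, with the number of members in brackets and medians as black bars. Members with matches of both arms appear in both of those rows. Red, blue and grey dots are members called higher, called lower and not called, and the medians are 0.35 for a miR-142a-3p match, 0.18 for a miR-142a-5p match and 0.04 for neither.

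A list of partners of solute carriers, metal-binding proteins and carriers of other families was read beside the members. Of its 50 genes 45 were tested, with 11 higher (24.4%, against 11.6% of all genes tested) and 0 lower (against 7.27%). Their median was 0.21 on the log2 scale. At an unadjusted p under 0.05 1 was lower, and DESeq2 called 0 lower. Bsg, the chaperone of monocarboxylate transporters, read 118, 115 and 113 normalised CPM in WT and 203, 166 and 194 in KO libraries (log2 fold change 0.70, SE 0.10, FDR = 0.00456). The cholesterol exporters Abca1 (26.98, 25.1 and 28.8 in WT and 91.4, 77.3 and 78.8 in KO, log2 fold change 1.61, SE 0.11, FDR = 0.000527) and Abcg1 (148, 185 and 173 in WT and 309, 287 and 263 in KO, log2 fold change 0.76, SE 0.11, FDR = 0.00540) and the mitochondrial transporter Abcb10 (7.08, 5.33 and 5.70 in WT and 18.1, 18.8 and 25.1 in KO, log2 fold change 1.78, SE 0.20, FDR = 0.00219) were higher. So were the phosphate exporter Xpr1 (0.68, FDR = 0.00425), the mitochondrial carriers Ucp2 (0.60, FDR = 0.00498) and Mtch1 (0.83, FDR = 0.0105) and the prostaglandin transporter Slco2a1 (2.24, FDR = 0.0333). The metallothioneins Mt1 and Mt2, which bind zinc and copper, were low in WT and higher in KO libraries. Mt1 read 0.985, 0.451 and 0.830 normalised CPM in WT and 8.05, 2.57 and 3.90 in KO libraries, or 2.71 (SE 0.51, FDR = 0.0134) as log2 fold change. Mt2 read 0.123, 0.205 and 0.221 normalised CPM in WT and 3.11, 2.27 and 3.28 in KO libraries, or 3.91 (SE 0.35, FDR = 0.00110). The log2 fold changes of Slco2a1, Mt1 and Mt2 were 1.46, 2.14 and 3.85 without KO replicate 1 (adjusted p = 0.0301, 0.00826 and 0.000845). In that fit 12 genes of the list were higher, Emb (0.69, adjusted p = 0.00228) in addition, and 1 was lower, Abcb1a (-0.41, adjusted p = 0.0198).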

How the data were processed

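RNA was sequenced as 51-base single-end reads from 1 library per mouse, 3 WT and 3 KO. Per the study's methods, the authors aligned reads to mm10 with HISAT and counted them on genes with featureCounts, ignoring strand. Their deposited matrix gives raw counts, not normalized, for 24421 genes, and all 6 columns were used (total counts 13883069 to 24042994 per library). Strand therefore did not separate reads of overlapping genes on opposite strands. How such reads, and those of near-identical copies, were assigned is not stated there. Here KO was compared with WT over the 11658 genes that exceeded 1 CPM in 3 or more libraries, with edgeR 4.0.16 (R 4.3.3), TMM normalization, the QLF test and Benjamini-Hochberg adjustment (FDR), and called at an FDR under 0.05. The SE is the log2 fold change divided by the root of F, and intervals are at 95%. Permutation tests used log2 of normalised CPM plus 0.5. Exon lengths, positions and 3′ UTRs came from GENCODE vM21 (GRCm38, the build mm10 names), and all 174 members were matched by symbol. The values rest on 3 libraries per group, labelled as biological replicates.

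The members, classes and lists were chosen with earlier results of these data known. Named members were up to 4 called ones per class and direction with the smallest p, the 10 of highest level per length, the list of T cell activation transporters, the 3 on either side of the CPM limit, and those in which KO replicate 1 was over 2-fold above all other libraries. The remaining called members, near misses and members with an 8mer were added after their values had been seen. Lists of Treg, neutrophil, monocyte and macrophage, B cell, CD8 and NK, and erythroid markers were read in each library. Alternatives covered RLE and library-size scaling, DESeq2 1.42.0, edgeR's likelihood ratio and exact tests, quasi-dispersion settings, filters, a stricter FDR, a replicate block and leaving out each library. The fit without KO replicate 1 on an unchanged set of genes was added after seeing the data. Some genes are not reported here. The steps were tested on simulated counts.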

Additional observations from a re-analysis of the deposited data

How the results depend on the processing

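The counts of called members (22 higher and 16 lower) stayed within 1.5 times under RLE scaling, library-size scaling, DESeq2, the likelihood ratio and exact tests, all 3 edgeR tests together, the newer quasi-dispersion, robust estimation, the filter on all 6 libraries and the replicate block, with 15 to 28 higher and 12 to 22 lower. With no filter beyond 1 count 13 were higher, and 13 lower, and at an FDR under 0.01 there were 5 and 3. Leaving out 1 library gave 6 to 23 higher and 4 to 19 lower members, the fewest without a WT library, and 4 of the higher members dropped out of the fits without a KO library because of the CPM filter. The median log2 fold change over members (0.08) was -0.001 with library-size scaling and 0.026 without KO replicate 1 on unchanged genes, and ranged from 0.007 to 0.118 over the fits that each left out 1 library. Fewer samples and, without a filter, more genes tested enter these fits, and other causes were not tested. The shared replicate numbers gave no sign of a pairing, but 3 libraries per group cannot exclude one. Deviations from the group means correlated at 0.0731, -0.0124 and -0.188 across genes for same-numbered libraries, and with the replicate block 16 members were higher (13 of them among the 22) and 12 lower (11 of them among the 16). Of the named members, 9 that were not called changed direction under some setting. Over the fits that each left out 1 library their log2 fold changes ran from -0.441 to 1.269 for Slc16a10, -0.038 to 0.065 for Slc19a1, -0.072 to 0.246 for Slc25a11, -0.593 to 1.232 for Slc2a6, -0.98 to 0.696 for Slc37a2, -0.292 to 0.424 for Slc38a2, -0.08 to 0.058 for Slc39a7, -0.096 to 0.22 for Slc3a2, -0.063 to 0.127 for Slc7a6. Under other settings that turned the direction they were, with library-size scaling -0.007 for Slc25a11, -0.034 for Slc3a2, -0.001 for Slc7a6 and -0.069 for Slc19a1, with no filter -0.01 for Slc19a1, with the replicate block 0.07 for Slc38a2 and -0.174 for Slc37a2, without KO replicate 1 on unchanged genes -0.054 for Slc25a11, -0.081 for Slc3a2, 0.101 for Slc38a2, -0.426 for Slc16a10, -0.579 for Slc2a6 and -0.963 for Slc37a2. With 3 libraries per group, changes of low-level members such as those near the floor of 3 counts are the least certain.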
